A study of Mus musculus with 8 samples.

Results

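The endoplasmic reticulum (ER) folds the proteins that a cell secretes, and a set of 35 genes that serve or report on this work was followed here in the liver of *Ppara* V227A and wild-type mice. The set covers ER chaperones, lectin chaperones, protein disulfide isomerases, the 3 sensors of the unfolded protein response, the transcription factors below them, ER-associated degradation (ERAD), the translocon, and the feedback genes of the integrated stress response. The members were chosen by gene symbol, and 35 of 35 were found among the 27179 genes of the deposited table. All 35 had reads.

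When unfolded proteins build up in the ER, 3 membrane sensors respond. IRE1 cuts the *Xbp1* mRNA so that an active transcription factor is made, ATF6 is released by proteolysis and enters the nucleus, and PERK phosphorylates the initiation factor eIF2α, which slows translation while favoring that of *Atf4*. Hepatocytes secrete albumin, clotting factors and lipoproteins in large amounts, and the same chaperones and degradation factors are in use in the unstressed liver.

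RNA sequencing was performed on livers taken from C57BL/6NHsd mice, all of them adult males fasted for 6 h, with 4 wild-type libraries and 4 libraries from mice homozygous for the V227A substitution in *Ppara*, the nuclear receptor that drives the fasting program of the liver. The substitution is in the germline, was made by adenine base editing of zygotes, and traces to a heterozygous founder backcrossed to the same strain, so that every mutant library shares 1 editing event. The measurement used here is the authors' mean level of each gene over all 8 libraries, in log2 CPM, where CPM is the number of reads of a gene scaled to a library of fixed size. This mean pools the genotypes, so the levels below describe fasted liver across wild-type and V227A mice, no difference between the genotypes is given, and the level in each library was not analysed here. A mean over libraries carries no SD, and differences between genes were therefore described without a test.

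The estimated mean effective library size was about 27473997 reads, which is no count of the reads sequenced, and the size of each library is unknown. In bulk tissue, fewer cells of a type and less RNA per cell cannot be told apart. The tissue label was checked against its markers. All 12 hepatocyte markers had reads, with *Alb*, which encodes albumin, at 69579 CPM, and they summed to 160604 CPM. Markers of Kupffer cells and macrophages summed to 196 CPM, of stellate cells to 153 CPM, of endothelial cells to 132 CPM and of cholangiocytes to 35.6 CPM. B and plasma cells, of which the latter are rich in ER, gave 6.50 CPM over 6 markers, and exocrine pancreas 1.94 CPM over 6 markers, of which *Cpa1*, *Pnlip* and *Prss2* had no reads.

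The ER stress genes drew many reads in fasted liver. The 35 members had a median level of 6.60 log2 CPM (96.8 CPM) against 2.13 log2 CPM (4.37 CPM) for the 18238 named genes with reads. In the ranking of those genes by level, 34 of 35 members lay above the median, and 22 members (62.9%) lay in the top 10% of genes. Together they held 0.607% of all reads. The 5 members with the most reads, *Calr*, *Hsp90b1*, *Hspa5*, *Herpud1* and *Pdia3*, accounted for 58.3% of the summed CPM of the set. The CPM of single members ran from 3.70 for *Derl3* to 1016 for *Calr*.

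**Figure D1:**
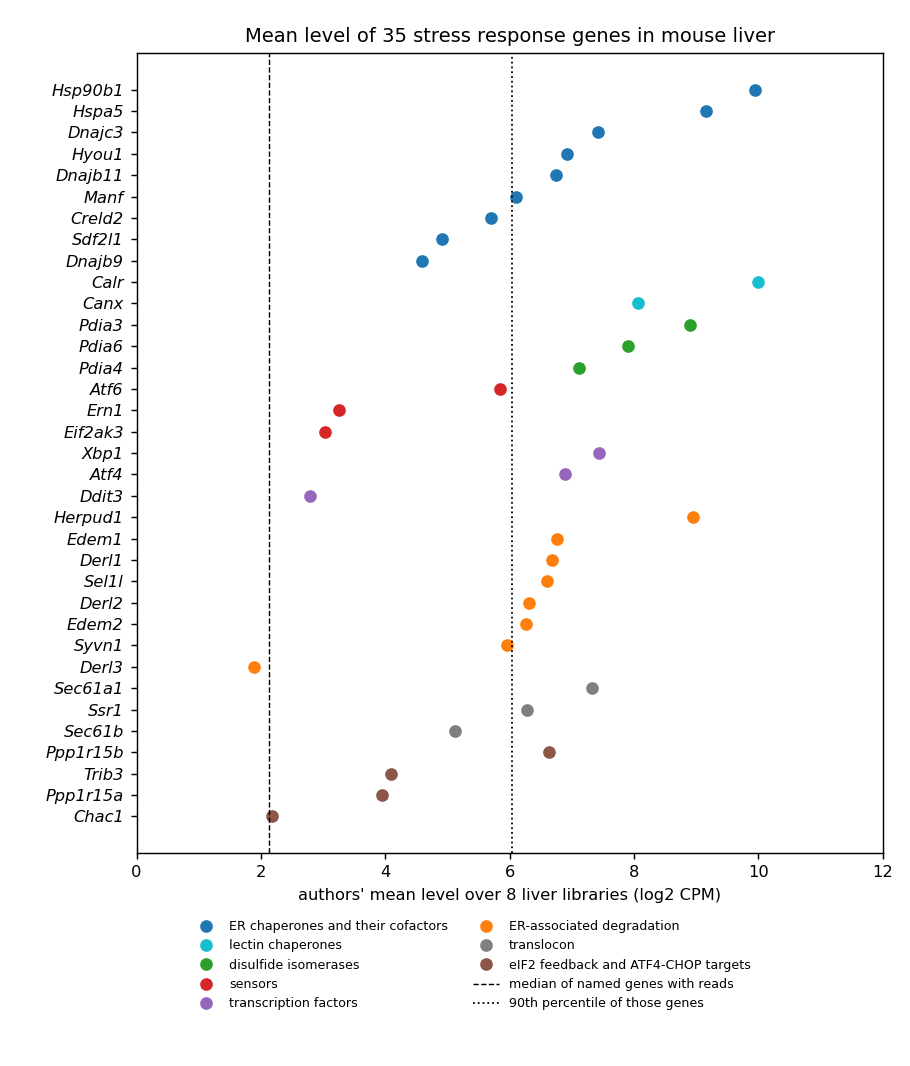
Mean level of each of the 35 members over 8 liver libraries, in log2 CPM on the horizontal axis, with 1 point for each gene and genes grouped and colored by role. The dashed line marks the median (2.13) and the dotted line the 90th percentile (6.03) of the 18238 named genes with reads; *Derl3* is the member to the left of the median.

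The counting behind these means was deep. *Calr* had about 27910 reads in an average library and *Derl3*, the member with the fewest reads, about 99.6. The counting error of the mean over all libraries, from the estimated reads alone, was 0.212% of the level for *Calr* and 3.54% for *Derl3*, and it leaves out the spread between mice.

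Because a long transcript yields more fragments than a short one, the ranks by CPM above mix length with abundance. From here on, levels were compared between genes after division by transcript length, as CPM per kilobase (kb) of the longest transcript of each gene in the GENCODE vM21 annotation of GRCm38. On this scale the members had a median of 30.5 CPM per kb, 21.8 times the median of 1.40 for the 17956 named genes with reads and a length. The top 10% of genes began at 25.2 CPM per kb and held 19 of the 35 members (54.3%). Both figures depend on how many barely detected genes stand beside the members. Among the 11540 genes with a length and a mean of at least 0 log2 CPM, the gene median was 4.67 CPM per kb, the members' median was 6.52 times as high, and 12 members were in the top 10%. *Ern1*, at 1.37 CPM per kb, lay just below the median of all genes with reads. It lay above the gene median with the mean transcript length and with the union of exons, and with *Eif2ak3*, *Chac1* and *Derl3* it lay below the median of the genes of at least 0 log2 CPM. Which transcripts the liver uses cannot be read from a value per gene, so 3 other lengths were tried (mean transcript length, union of exons, and the APPRIS principal transcript). The levels of 30 members moved over 1.5-fold between the 4 lengths, with a median span of 2.39-fold and the widest, 6.75-fold, for *Sec61a1*. Ratios between members are given below with their range over the 4 lengths, in place of an error.

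**Figure D2:**
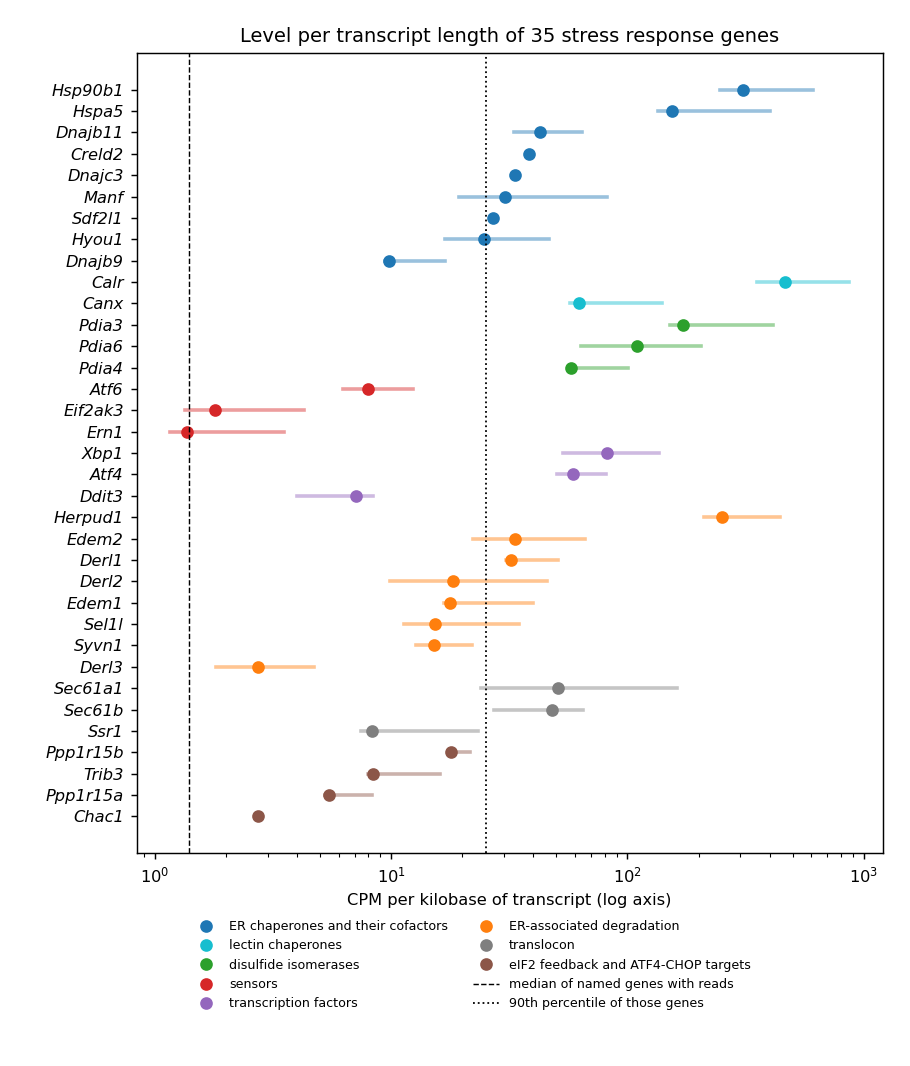
CPM per kb of transcript for each member on a log axis. Points use the longest transcript, the horizontal bars span the 4 transcript lengths, the dashed line is the median (1.40) and the dotted line the 90th percentile (25.2) of all named genes with reads and a length; the sensors *Ern1* and *Eif2ak3* lie at the lower end and *Calr* and *Hsp90b1* at the upper end.

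The 9 ER chaperones and cofactors had a median of 33.3 CPM per kb, and 7 of them were in the top 10% of genes. *Hsp90b1*, which encodes the ER form of HSP90 (GRP94), led them with 308 CPM per kb and 9.95 log2 CPM. *Hspa5* encodes BiP, the HSP70 chaperone that also holds the sensors inactive, and stood at 155 CPM per kb and 9.15 log2 CPM. The per-length level of *Hspa5* was 0.504 times that of *Hsp90b1* (0.442 to 0.655 over the 4 lengths), so *Hsp90b1* was ahead under each of them.

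The cofactors of BiP were present at a fraction of its level. *Dnajb11*, an ER J-protein that hands unfolded clients to BiP, had 42.5 CPM per kb, and *Hspa5* exceeded it 3.65-fold (3.65 to 6.24). *Dnajc3* (p58IPK), a J-protein known as an inhibitor of PERK, had 33.3 CPM per kb, 4.66-fold below *Hspa5* (4.05 to 12.1). *Hyou1* (GRP170), a large HSP70 relative and nucleotide exchange factor for BiP, had 24.7 CPM per kb, 6.27-fold below (5.72 to 8.62).

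*Dnajb9* (ERdj4), the J-protein that brings BiP to IRE1, was the lowest of the chaperone group, with 9.75 CPM per kb and 24.1 CPM. *Hspa5* exceeded it 15.9-fold (14.3 to 23.8). *Sdf2l1*, a partner of DNAJB11 in an ER chaperone complex, had 27.0 CPM per kb. *Creld2*, a disulfide isomerase-like protein, and *Manf*, a secreted ER stress protein that binds BiP, had 38.1 and 30.5 CPM per kb. The order of *Manf* and *Creld2* depended on the length used, with a ratio between 0.509 and 2.14.

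The lectin chaperones, which hold glycoproteins through their sugar chains, were unequal. *Calr* (calreticulin, soluble in the ER lumen) had the highest per-length level of all members, 465 CPM per kb, which was above 99.2% of genes. *Canx* (calnexin, its membrane-bound partner) had 62.6 CPM per kb. The ratio of *Calr* to *Canx* was 7.43 (6.18 to 7.43).

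All 3 disulfide isomerases were in the top 10% of genes. *Pdia3* (ERp57), which works with both lectin chaperones on glycoproteins, had 172 CPM per kb. *Pdia6* (P5), which also acts on the sensors, had 110 CPM per kb, and *Pdia4* (ERp72) had 57.7. The order *Pdia3*, *Pdia6*, *Pdia4* held under all 4 lengths, with ratios of 1.57 (1.57 to 2.38) for the first pair and 1.90 (1.105 to 2.03) for the second.

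The sensors were the least abundant group, with a median of 1.79 CPM per kb and none of the 3 in the top 10%. *Ern1* (IRE1α) had 1.37 CPM per kb and *Eif2ak3* (PERK) had 1.79, above 49.8% and 53.2% of genes. *Atf6* had 7.96 CPM per kb, 5.81 times *Ern1* (3.53 to 5.81) and 4.45 times *Eif2ak3* (2.90 to 4.67). *Ern1* and *Eif2ak3* themselves were close, at a ratio of 0.766 (0.766 to 0.869), and *Ern1* was the lower under each length.

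**Figure D3:**
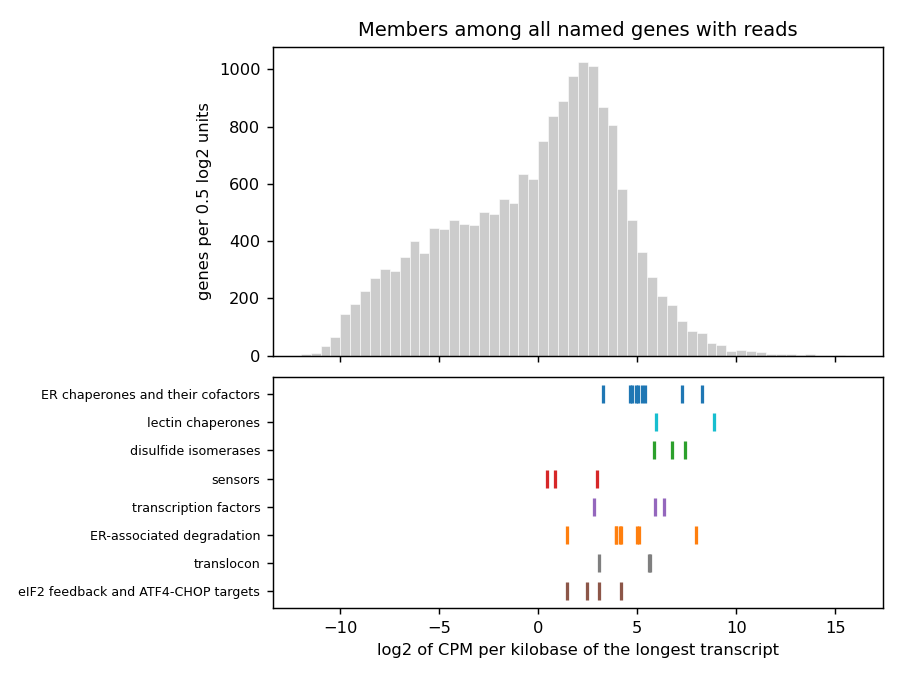
Histogram of log2 CPM per kb of the longest transcript for the 17956 named genes with reads and a length (number of genes per bin of 0.5 log2 units), above the members drawn as 1 tick each in a row for each role. The sensors *Ern1* and *Eif2ak3* sit near the middle of all genes, *Atf6* lies above 76.5% of them, and the disulfide isomerases and lectin chaperones in the upper tail.

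The transcription factors below the sensors ranged from 7.09 to 81.7 CPM per kb. *Xbp1*, the target of IRE1, had 174 CPM and 81.7 CPM per kb, 59.7 times the mRNA of its processing enzyme, *Ern1* (38.8 to 59.7). *Atf4*, whose translation rises when eIF2α is phosphorylated, had 119 CPM and 58.9 CPM per kb, 33.0 times *Eif2ak3* (19.0 to 38.6). *Ddit3* encodes CHOP, the factor that ATF4 induces in prolonged stress, and had 6.95 CPM and 7.09 CPM per kb. *Atf4* exceeded *Ddit3* 8.31-fold (8.31 to 12.6) and *Xbp1* exceeded it 11.5-fold (10.6 to 16.2). All these ratios are of mRNA, and neither protein amounts nor sensor activity were measured here.

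A level of *Xbp1* mRNA does not tell how much of it IRE1 has cut. IRE1 removes an unconventional intron of 26 bases from exon 4, and a count of reads per gene holds the cut and the uncut mRNA together. The intron is shown because it is the sequence that separates the inactive from the active factor. It was located by its length and by the splice-site bases that IRE1 reads, at chr11:5524279-5524304 of GRCm38 on the plus strand, and is in capitals within chr11:5524267-5524316, which is coding sequence throughout. Of 2 stretches that met these criteria, this was the one whose removal lengthened the open reading frame, from 267 to 371 codons.
Xbp1: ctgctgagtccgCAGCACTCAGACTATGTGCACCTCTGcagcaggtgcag

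The 8 ERAD genes, whose products pull misfolded proteins out of the ER for the proteasome, had a median of 18.0 CPM per kb and the widest spread of any group. *Herpud1* (HERP), which gathers the ERAD complex at the membrane, had 252 CPM per kb and 492 CPM, the third highest of all members per length. *Syvn1* (HRD1), the ubiquitin ligase at the center of that complex, had 15.2 CPM per kb, and *Herpud1* exceeded it 16.6-fold (14.1 to 20.1). *Sel1l*, the adaptor that stabilizes HRD1, had 15.3 CPM per kb, and its ratio to *Syvn1* ran from 0.858 to 1.60 over the lengths, so these partners could not be ordered.

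*Edem1* and *Edem2*, which trim mannose from glycoproteins bound for degradation, had 17.8 and 33.6 CPM per kb. *Edem2* was 1.89-fold higher (1.33 to 1.89), although *Edem1* had more reads (108 against 76.96 CPM) because its longest transcript has 6077 bases against 2290. The derlins, membrane proteins of the ERAD channel, differed among themselves. *Derl1* had 32.2 CPM per kb, *Derl2* 18.2 and *Derl3* 2.74, in this order under all 4 lengths. *Derl1* exceeded *Derl3* 11.7-fold (10.8 to 16.9) and *Derl2* exceeded it 6.64-fold (5.44 to 9.72).

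Among the translocon genes, which thread new proteins into the ER, *Sec61a1* (the channel subunit) had 50.8 CPM per kb and *Sec61b* (a small subunit beside the channel) had 48.0. Their order changed with the length, with a ratio of *Sec61b* to *Sec61a1* between 0.401 and 1.21. *Ssr1* (TRAPα, which assists the channel) had 77.6 CPM over a transcript of 9333 bases and thus 8.31 CPM per kb, 0.163 times *Sec61a1* (0.144 to 0.310). The level of *Sec61b* is uncertain for another reason. *Gm10320* matches 474 of the 564 bases of one of its transcripts at 98.3% identity, pseudogenes *Gm33666* and *Gm5870* match shorter stretches, and reads may be split among them.

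The 4 genes of eIF2 feedback and of the ATF4 and CHOP program were below most members, with a median of 6.94 CPM per kb and none in the top 10%, though each lay above the gene median of 1.40. *Ppp1r15b* (CReP), the constitutive partner of the phosphatase that removes the phosphate from eIF2α, had 17.8 CPM per kb. *Ppp1r15a* (GADD34), the stress-induced partner, had 5.47, and the constitutive form exceeded it 3.26-fold (2.58 to 3.41). *Trib3*, a pseudokinase that binds ATF4 and AKT, had 8.41 CPM per kb. *Chac1*, which degrades glutathione, had 2.72 CPM per kb and about 122 reads in an average library, and *Trib3* exceeded it 3.09-fold (2.94 to 5.92).

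Some members share exonic bases with a gene on the other strand. The libraries were stranded, but the strand setting of the counting is not given in the sources used here. Such overlaps covered 10.3% of the exonic bases of *Hsp90b1* (with *1810014B01Rik*), 11.4% of *Ppp1r15b* (with *Gm26616*), 8.16% of *Sec61a1* (with *Gm44170*) and 8.05% of *Eif2ak3* (with *Gm43292*). Among the smaller ones were those of *Ddit3* (3.97%, with *Mars* at 5.98 log2 CPM), *Manf* (4.14%, with *Dcaf1*), *Derl2* and *Syvn1*. The annotation also holds a second *Ddit3* record that overlaps 6.13% of the exonic bases. *Derl1* has a processed pseudogene, *Gm35638*, that matches 652 bases at 95.4% identity. Their part in the levels was not tested.

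The promoters of the members were read for the short sites through which the unfolded protein response is known to act. RefSeq promoter windows on GRCm38.p6, from 250 bases before to 50 bases after the start of a gene, matched 29 of the 35 members by symbol, and *Hyou1*, *Manf*, *Atf6*, *Derl1*, *Sec61a1* and *Ppp1r15b* had no window. The ER stress element (ERSE), which ATF6 and XBP1 bind together with NF-Y, was searched on both strands as CCAAT and CCACG with 9 bases between. An exact ERSE stood in 9 of 29 members (31.0%), namely *Hspa5*, *Hsp90b1*, *Calr*, *Canx*, *Pdia6*, *Dnajc3*, *Creld2*, *Syvn1* and *Derl3*, and in 37 of the 27025 genes with a window (0.137%). Members of this set are in part known as the genes in which the ERSE was first described, so the share is a description of the promoters and not independent of how such lists come about.

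The sites of the most abundant chaperones are shown with that of *Derl3*, which had the fewest reads of all members. At 2.74 CPM per kb it was the lowest of the 9 carriers, and the next lowest, *Syvn1*, had 15.2. Each site is written along its gene, with 5 bases on either side and the ERSE letters in capitals. Coordinates of the sites include these flanking bases. CCAAT comes first where the element lies along the gene, and CGTGG comes first where it lies on the other strand. The site of *Hspa5* is at chr2:34772020-34772048 (plus strand), and the element without its flanks lies 65 to 47 bases before the RefSeq start. The GENCODE gene (chr2:34771970-34777547) starts further upstream, so that the site lies inside it. The other sites lie outside their genes in both annotations. Those of *Hsp90b1* are at chr10:86705633-86705661 and chr10:86705528-86705556 (minus strand), that of *Calr* at chr8:84847070-84847098 (minus strand), that of *Canx* at chr11:50325795-50325823 (minus strand) and that of *Derl3* at chr10:75893237-75893265 (plus strand), all on GRCm38.p6.
Hspa5: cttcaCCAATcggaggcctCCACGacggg
Hsp90b1, upstream site: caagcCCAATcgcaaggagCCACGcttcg
Hsp90b1, downstream site: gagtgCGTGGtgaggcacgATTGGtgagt
Calr: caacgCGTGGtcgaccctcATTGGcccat
Canx: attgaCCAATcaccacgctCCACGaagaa
Derl3: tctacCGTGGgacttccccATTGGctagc

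Every exact ERSE of the members lay before the RefSeq start, from 212 bases before it in *Hsp90b1* to 26 bases before it in *Syvn1*. *Hsp90b1* was the member with 2 such sites. The 9 members with an exact ERSE had a median of 62.6 CPM per kb (2.74 to 465) and the 20 with a window and no exact ERSE had 18.0 (1.37 to 252). These ranges overlap over most of their extent.

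The second form, ERSE-II, was searched as ATTGG and CCACG with 1 base between. It was found in *Herpud1*, the gene in which it is best known, and *Dnajb11*, 2 of 29 members (6.90%) against 12 of 27025 genes (0.0444%). The C/EBP-ATF response element (CARE), through which ATF4 acts, was searched as TGATG and AA with 1 base between. It was found in *Chac1*, *Trib3* and *Herpud1*, 3 of 29 members (10.3%) against 1219 genes (4.51%). With 1 mismatch allowed this order turned, to 27.6% of members against 54.4% of genes. Among the 13273 genes with a window and reads in liver, 2.97% held an exact CARE and 43.3% held one with 1 mismatch. The UPRE, searched as TGACGTGG, was found in 0 of 29 members and in 193 genes (0.714%), and with 1 mismatch in 9 members (31.0%) and 18.1% of genes. *Herpud1* was the member that held both an ERSE-II and a CARE, and its sites are shown with those of the other carriers, capitals marking the motif letters. Their coordinates again include 5 bases on either side. The ERSE-II sites are at chr8:94386372-94386392 in *Herpud1* and chr16:22857847-22857867 in *Dnajb11* (both plus strand), and the CARE sites at chr8:94386312-94386329 in *Herpud1*, chr2:119351044-119351061 in *Chac1* (both plus strand) and chr2:152344034-152344051 in *Trib3* (minus strand). All 3 CARE lie on the strand opposite to their gene, so they read from TT to CATCA.
Herpud1, ERSE-II: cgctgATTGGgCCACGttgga
Dnajb11, ERSE-II: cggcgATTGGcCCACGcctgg
Herpud1, CARE: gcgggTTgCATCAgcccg
Chac1, CARE: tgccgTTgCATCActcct
Trib3, CARE: caggtTTaCATCAgccgg

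**Figure D4:**
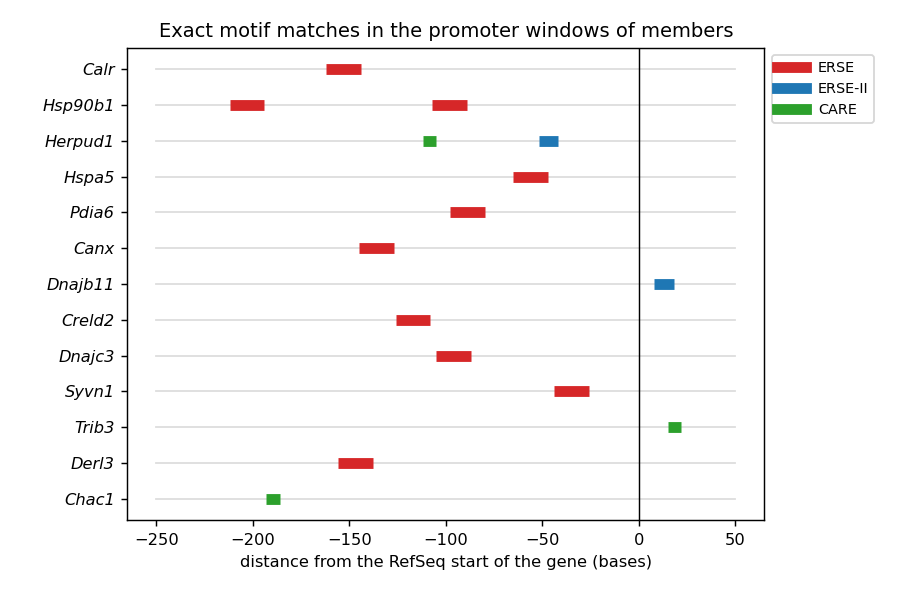
Exact ERSE, ERSE-II and CARE matches in the promoter windows of the 13 members that hold any, drawn as colored bars at their distance in bases from the RefSeq start of the gene, with genes ordered by CPM per kb from the top. All 10 ERSE sites lie before the start, and the ERSE-II of *Dnajb11* and the CARE of *Trib3* lie just after it.

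The members were set beside 6 wider lists of the same pathways. The other folding enzymes had a median of 23.4 CPM per kb over 20 genes with reads, led by *P4hb*, the archetypal protein disulfide isomerase, at 525 CPM per kb. The other ERAD genes, with a median of 15.02 over 17, were led by *Os9*, a lectin that delivers glycoproteins to HRD1, at 131 CPM per kb. The other translocon and signal peptidase genes had a median of 23.6 over 22, with *Rpn2*, an oligosaccharyltransferase subunit, at 65.3. By the longest transcript, *P4hb* was above each of the 3 member isomerases and *Rpn2* above each of the 3 translocon members, while *Os9* was below *Herpud1* and above the other ERAD members.

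The regulatory lists were lower. The 15 other kinases, phosphatase subunits and factors around eIF2 had a median of 10.4 CPM per kb. Of the other eIF2α kinases, *Eif2ak1* (HRI) had 14.8 CPM per kb, *Eif2ak2* (PKR) 3.91 and *Eif2ak4* (GCN2) 1.52, against 1.79 for the member *Eif2ak3*. The 16 genes around ATF6 and IRE1 had a median of 2.89, with the hepatocyte factor *Creb3l3* (CREBH), an ER-bound relative of ATF6, at 212 CPM per kb and *Ern2* (IRE1β, an epithelial form) at 0.00461, from about 0.375 reads in an average library.

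The targets and partners of ATF4 ran over a wide range, whose lower end rests on almost no reads. They had a median of 1.97 CPM per kb over 19 genes, and 10 of the 19 were above the gene median. *Atf5*, a factor induced with ATF4, had 176 CPM per kb, *Cth*, which makes cysteine, had 160, and *Shmt2*, a mitochondrial serine enzyme, had 109, all above *Atf4* itself. At the other end were *Slc7a11*, the cystine transporter, at 0.00248 CPM per kb, *Phgdh* at 0.00961 and *Psat1* at 0.129, the last 2 being enzymes of serine synthesis. *Trib3* and *Chac1*, the members nearest to this list in role, lay between these ends.

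**Figure D5:**
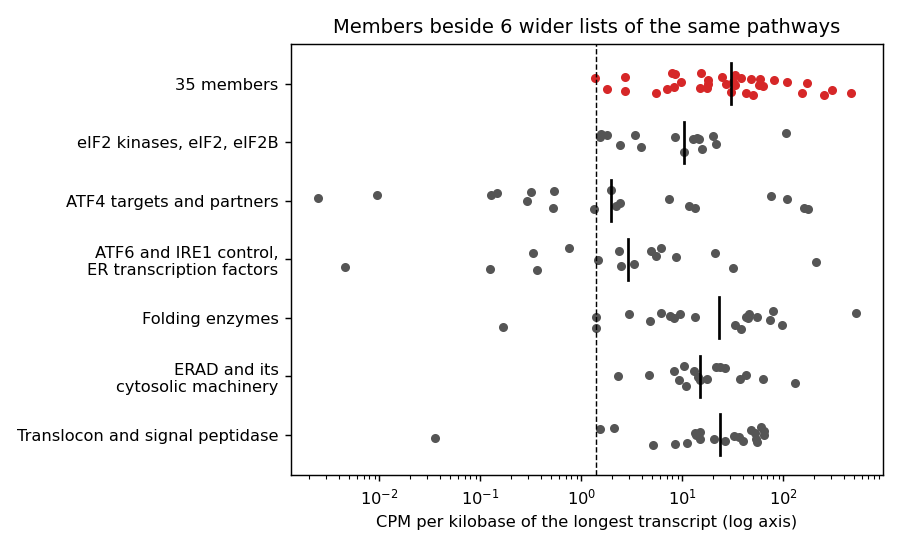
CPM per kb of the longest transcript on a log axis for the 35 members (red) and the genes with reads of 6 wider lists (gray), 1 point for each gene, with a vertical bar at each median and a dashed line at the median of all named genes (1.40). The members have the highest median (30.5) by this length, and the other lengths were not tried for the wider lists. The ATF4 list reaches from 0.00248 (*Slc7a11*, from about 0.628 reads in an average library) to 176.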

How the data were processed

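Livers of 4 wild-type and 4 V227A mice were sequenced by the authors as stranded poly-A libraries. Per the labels and the methods, reads were trimmed with Trimmomatic, assessed with FastQC, aligned to GRCm38 with STAR and counted with featureCounts, and edgeR was used on the counts. Tool versions, the annotation and the strand setting of the counting are not given in the sources used here. The deposited table holds, for each gene, the authors' mean log2 CPM over all libraries, which is the column used here. Its other columns hold the authors' own comparison of the genotypes (log2 fold change, F statistic, p-value and adjusted p-value) and were not used. Values per library were not analysed here, so the edgeR test of the genotypes planned for such values, and its alternatives, could not be run.

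Genes at the lowest mean (-3.78 log2 CPM, 8242 of 27179) were taken to have no reads. The mean effective library size was estimated from this level and a prior count of 2, after which genes of 1 to 5 reads (2378 of them) came out within 0.1 of a whole read in 99.9% of cases. Counting errors are 1 over the square root of the estimated reads over all libraries. Lengths came from GENCODE vM21 and were found for 98.5% of the named genes with reads. Copies were searched with BLAST 2.17.0 (at least 95% identity over 200 bases) and motifs by exact letters on both strands. Python 3.11.15, pandas 2.3.3 and matplotlib 3.10.9 were used. In simulated counts, 100% of genes of 100 reads or more had an estimate within 10% of their reads. The simulation used the same prior count of 2, so it could not test that choice.

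All 35 members are named. In the wider lists, the genes named are from the 3 highest and the 3 lowest, and the eIF2α kinases *Eif2ak1* and *Eif2ak2* were added after their values were seen. The members and lists were chosen with earlier results of these data known.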

Additional observations from a re-analysis of the deposited data

How the results depend on the processing

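No paired analysis was possible because the values used are means over all libraries, although the labels number the libraries 1 to 4 in both genotypes. The planned genotype test, leaving out single replicates, other count normalizations and the fit with a replicate block were not run for the same reason. The members' median level stayed at 6.60 log2 CPM when the lowest level of the table was subtracted, which changed no member's level by more than 1.5-fold. That lowest level (-3.78 log2 CPM) is far below the lowest member (*Derl3*, 1.89 log2 CPM), so this setting could hardly have changed the result. The number of members in the top 10% was 22 over named genes with reads, 15 over genes with at least 0 log2 CPM and 25 over all rows. The median per-length level was 30.5 CPM per kb with the longest transcript, 45.7 with the mean transcript length and 22.2 with the union of exons, because these lengths are shorter and longer. It was 30.5 with the principal transcript, a length chosen after seeing the data. The ratio of the members' median to that of all genes was 21.8, 18.7, 20.7 and 19.9 in this order. Over genes of at least 0 log2 CPM it was 6.52, since the median of all genes rose from 1.40 to 4.67 CPM per kb (from 2.13 to 3.96 log2 CPM before division by length) while all 35 members passed. The members in the top 10% per length then numbered 12 in place of 19. By length, 8 of the 10 highest members per length stayed among the 10 highest under all 4. With 1 mismatch allowed, an ERSE was found in 15 members with a window in place of 9, and in 1.72% of all genes. The same change took ERSE-II from 2 to 9 members (1.31% of genes), UPRE from 0 to 9 (18.1%) and CARE from 3 to 8 (54.4%), and turned the order of members and genes for CARE. Depth limits little here: the lowest member had an estimated 796 reads over all libraries.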

Other observations

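Outside the members, 28 genes had an exact ERSE in their promoter window. Of these, 14 had reads in liver, near the share of all genes with a window (13273 of 27025). These 14 had a median of 0.258 CPM per kb (0.00118 to 11.99), against 1.40 for the named genes with reads and a length. The lowest, *Xlr3b*, *Xlr3c* and *Calr4*, had 0.0773, 0.0773 and 0.0819 CPM, close to the 0.0728 CPM of genes without reads. The genes named here were chosen after their values were seen. *Acacb*, the mitochondrial acetyl-CoA carboxylase, was the highest at 11.99 CPM per kb, followed by *Ero1b*, the oxidase that recharges protein disulfide isomerase, at 9.60 and *Pan2*, a deadenylase subunit, at 6.72. Of the 23 carriers with reads, 39.1% were members, while members made up 29 of the 13273 genes with a window and reads. As said above, the ERSE was first described in part in such genes, so this share is no independent result.

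For 2 of the other carriers the site, given here without flanking bases, is the very same stretch of DNA as a member's. *Alg12*, a mannosyltransferase of N-glycan synthesis at 3.09 CPM per kb, shares the site of *Creld2* (chr15:88819520-88819538), and *1700122E12Rik* at 0.142 CPM per kb shares that of *Calr* (chr8:84847075-84847093). The member of each pair was the more abundant, with *Creld2* at 38.1 and *Calr* at 465 CPM per kb.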
